A study of Macaca mulatta with 6 samples.

Results

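The BCL2 family genes described here decide, at the mitochondrial outer membrane, whether a stressed cell lives or dies. They were chosen by symbol, as 10 genes of the family, namely BCL2, BCL2L1, BCL2L11, MCL1, BAX, BAK1, BBC3, PMAIP1, BNIP3 and BNIP3L. Of these 10, the 6 genes BCL2L1, BCL2L11, BAX, BBC3, BNIP3 and BNIP3L are listed among the 17795 genes of the count table, and all 6 are among the 11539 genes that passed the filter on low counts. BCL2, MCL1, BAK1 and PMAIP1 were not analysed here.

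Bulk RNA sequencing was carried out on rhesus monkey (Macaca mulatta) cultures that the study names spermatogonial stem cells (SSCs), after the cells of the testis that self-renew and also give rise to sperm, although the markers given below go against that name. SSC PDGF+ comprised 3 libraries with human platelet-derived growth factor (PDGF), a mitogen and survival factor for mesenchymal cells, and SSC PDGF- comprised 3 libraries without it. The culture methods give a serum-containing medium with GDNF, EGF, LIF, bFGF, Wnt3a, vitamin C and melatonin, and cells held in droplets of basement membrane gel. The labels give the tissue as testis and put replicate 1 of each group in batch 1 and replicates 2 and 3 in batch 2, while the monkeys, their ages and the days in culture of these libraries are not given in the sources used here.

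BCL2L1 encodes Bcl-xL, which keeps cells alive by holding pro-death relatives in check. BAX makes the pores that release cytochrome c, and the BH3-only proteins BIM (from BCL2L11) and PUMA (from BBC3) trigger that step by placing their BH3 helix in the groove of Bcl-xL and its relatives. BNIP3 and BNIP3L (NIX) also sit in the outer membrane, but are best known as receptors that hand mitochondria to autophagosomes, and both are classical targets of hypoxia-inducible factor (HIF). In the testis, BCL2 family genes are known for the control of germ cell number.

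The BH3 helix is the element through which these proteins meet, so its coding sequence is shown for 4 members, BCL2L1, BAX, BCL2L11 and BBC3. BNIP3 and BNIP3L were not searched for its core. Each run was read 5′ to 3′ from the longest coding model of the gene among the RefSeq transcripts of Mmul_10. The 18 capital bases code for leucine, any 3 residues, glycine or alanine, and aspartate, and 18 coding bases are shown on each side.
BCL2L1: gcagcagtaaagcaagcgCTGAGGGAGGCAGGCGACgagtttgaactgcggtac
BAX: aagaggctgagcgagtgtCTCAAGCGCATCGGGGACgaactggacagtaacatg
BCL2L11: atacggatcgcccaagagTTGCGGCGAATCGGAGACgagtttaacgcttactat
BBC3: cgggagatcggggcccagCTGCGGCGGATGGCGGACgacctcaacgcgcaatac
Each of these models held 1 match to the core, preceded by 89 codons in BCL2L1, 124 in BAX, 245 in BCL2L11 and 140 in BBC3.

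The genes lie on 5 chromosomes of Mmul_10, and in that annotation no exon of any of them overlaps an exon of another gene. BCL2L1 spans 66906268 to 66967842 on the minus strand of chromosome 10, and BCL2L11 spans 14321771 to 14368658 on the plus strand of chromosome 13. BAX (48936161 to 48944138, plus strand) and BBC3 (47241977 to 47252440, minus strand) are both on chromosome 19. BNIP3 spans 132432366 to 132447269 on the minus strand of chromosome 9, and BNIP3L spans 26649356 to 26684263 on the plus strand of chromosome 8.

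BNIP3 changed most of the members, so the 250 bases upstream of its annotated start, chr9:132447270-132447519 on the minus strand of Mmul_10, are shown 5′ to 3′ with a CACGTG palindrome in capitals.
BNIP3: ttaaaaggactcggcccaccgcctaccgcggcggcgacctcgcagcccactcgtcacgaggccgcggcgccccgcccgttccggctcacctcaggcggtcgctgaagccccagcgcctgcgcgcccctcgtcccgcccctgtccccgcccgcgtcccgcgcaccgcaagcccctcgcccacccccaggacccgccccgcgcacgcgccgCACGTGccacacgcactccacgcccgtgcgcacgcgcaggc
The palindrome holds ACGTG, the form of the hypoxia response element core searched here, once on each strand. Other forms of that core were not searched. These 2 overlapping matches start at positions -40 and -41 from the gene start. In windows of 250 bases before to 50 bases after the start, searched on both strands, BNIP3L had 3 matches, at -150, -90 and -89, and BCL2L1, BCL2L11, BAX and BBC3 had 0. At least 1 match was present in 22.9% of the 14935 such windows of listed protein-coding genes, and 10% held 2 or more. A match describes the letters in the window and is not evidence of binding.

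Library totals were 13095467 to 14102697 counts in SSC PDGF+ and 10593805 to 11605908 in SSC PDGF-, and levels are given in CPM, the counts of each library scaled to a common total with the TMM factors of edgeR. Replicates 2 and 3 lay closer to each other (chi-square per degree of freedom 3.43 and 3.66) than to replicate 1 (47.2 to 60.2). Whether they are separate cultures is not stated, so p-values measure the spread between these libraries, which may be partly technical. The defining germ cell markers were near 0 in both groups. DDX4 had 2 to 9 counts with PDGF and 13 to 38 without, SALL4 had 0 to 1 and 4 to 10, and STRA8 had 0 in all 6 libraries, although ID4 and UCHL1 had 1725 to 3640 counts with PDGF and 1729 to 2107 without. The 10 listed germ cell markers, ID4 and UCHL1 included, summed to 370 to 420.5 CPM with PDGF and 325.3 to 381.6 CPM without. Of the 4 tested, 1 was called higher and 1 lower. The 7 stromal markers summed to 14090 to 19410 CPM and 16950 to 19130 CPM, far above any germ cell marker named here. The markers therefore put the identity of these cells as SSCs in doubt, and SSC PDGF+ and SSC PDGF- are used as the study's names for the groups. Spermatid markers were present in both groups and lower with PDGF, at a summed 48.5 to 76.7 CPM against 416 to 688 CPM, with all 3 tested genes lower. Peritubular myoid markers (147 to 158 against 337 to 378 CPM, 2 of 4 tested genes lower) and epithelial markers (31.0 to 41.8 against 76.5 to 106 CPM, all 3 tested genes lower) moved the same way. The part of these cell types in the values below was not tested. In bulk libraries, fewer cells of a type and less RNA per cell cannot be told apart.

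The mitophagy-linked members BNIP3 and BNIP3L rose with PDGF, and they were the members called without a replicate block. With the block, BCL2L1 was called higher (edgeR adjusted p = 4.4e-05) and BAX lower (edgeR adjusted p = 4.72e-06) as well. The blocked fit called 31.1% of all genes higher and 29% lower. BAX lost its call when GC content and gene length were corrected for in the blocked fit (edgeR adjusted p = 0.0692). BNIP3 was about 4 times as abundant with PDGF, and BNIP3L about 2 times. In the unblocked fit the death genes BAX, BCL2L11 and BBC3 did not pass the test in either direction, and the survival gene BCL2L1 was higher in every PDGF library without passing it. In edgeR's quasi-likelihood test with Benjamini-Hochberg adjustment over all genes, 2 of 6 members were called higher, against 7.61% of the 11539 genes tested, and 0 were called lower, against 10.7%. At an unadjusted p under 0.05, 1 further member, BCL2L1, was higher, which makes 3 of 6 against 15.7% of all genes, and again 0 were lower, against 17.5%. DESeq2, which called 23.6% of all genes, made the same calls among the members.

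BCL2L1 was the survival gene of the set. It had 103.8, 116.9 and 107.7 CPM in SSC PDGF+ replicates 1, 2 and 3 and 82.4, 81.6 and 91.0 CPM in SSC PDGF- replicates 1, 2 and 3. Every PDGF library was above every library without PDGF. Mean levels of 109.5 ± 6.75 CPM (SD, n = 3) against 85.0 ± 5.23 CPM (SD, n = 3) gave it a log2 fold change of 0.36 (standard error 0.13, 95% interval 0.06 to 0.67, edgeR adjusted p = 0.0913). Blocking on the replicate number left the log2 fold change at 0.36, and BCL2L1 then passed the test (edgeR adjusted p = 4.4e-05). When GC content and gene length were corrected for, it was 0.51 and was called both in the blocked fit (edgeR adjusted p = 6.6e-07), in which 55.7% of all genes were called, and in the fit with no block (edgeR adjusted p = 0.0188), in which 41.2% were. Batch 1 alone gave a log2 difference of 0.33 and batch 2 alone 0.38.

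BAX, the pore former, had lower values with PDGF. The 3 PDGF libraries had 108.7, 192.2 and 175.9 CPM, and the 3 libraries without PDGF had 148.7, 228.7 and 230.7 CPM, in the order of their replicate numbers. The groups overlapped, because replicate 1 was low in both, yet within each replicate number the PDGF library was the lower one. Means of 159 ± 44.3 CPM (SD, n = 3) against 202.7 ± 46.8 CPM (SD, n = 3) gave BAX a log2 fold change of -0.35 (standard error 0.25, 95% interval -0.93 to 0.23, edgeR adjusted p = 0.37). This value was -0.13 without SSC PDGF+ replicate 1 and -0.54 without SSC PDGF- replicate 1, and was not called in either fit. Blocked by replicate number, BAX was called lower at -0.36 (edgeR adjusted p = 4.72e-06). Once GC content and gene length were corrected for in the blocked fit, its log2 fold change was -0.11 and the call was lost (edgeR adjusted p = 0.0692). The longest BAX transcript has a GC content of 59%, beside 59.1% for BCL2L1, 61.7% for BBC3 and 45% to 47.6% for the other members. What in the correction moved BAX was not tested. In batch 1 the log2 difference was -0.45 and in batch 2 it was -0.32.

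The BH3-only genes differed by less than the spread between replicates. BCL2L11, which encodes BIM, had few reads. The PDGF libraries held 34, 43 and 40 of its counts, against 40, 23 and 47 without PDGF. The highest and the lowest library were both without PDGF. The log2 fold change of BCL2L11 was -0.22 (standard error 0.35, 95% interval -1.02 to 0.57, edgeR adjusted p = 0.691), an interval that spans from a fold of 0.495 to one of 1.49.

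BBC3, which encodes PUMA, was at 19.2, 33.2 and 32.3 CPM with PDGF and 16.8, 34.1 and 39.6 CPM without. These libraries separated by batch rather than by PDGF, since replicate 1 was the lowest of its group both times, by 0.77 on the log2 scale with PDGF and by 1.13 without. The log2 fold change of BBC3 was -0.09 (standard error 0.34, 95% interval -0.87 to 0.68, edgeR adjusted p = 0.872). Its direction was not stable, with log2 differences of 0.19 in batch 1 and -0.17 in batch 2, and 0.13 in the blocked fit with GC content and gene length corrected.

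BNIP3, the mitophagy receptor with the CACGTG palindrome shown above, had 320.2, 259.7 and 241.1 CPM in SSC PDGF+ replicates 1 to 3. In SSC PDGF- it had 78.7, 62.6 and 58.4 CPM. The lowest PDGF library was over 3 times the highest library without PDGF. Means were 273.6 ± 41.4 CPM (SD, n = 3) against 66.5 ± 10.7 CPM (SD, n = 3), and BNIP3 rose by 2.04 on the log2 scale (standard error 0.18, 95% interval 1.63 to 2.45, edgeR adjusted p = 0.00031), a fold of 4.11. Batch 1 alone gave a log2 difference of 2.02 and batch 2 alone 2.05. Leaving out any single library moved the log2 fold change no further than 1.92 to 2.17.

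BNIP3L, its close relative, was at 64.6, 59.7 and 58.8 CPM with PDGF and at 37.4, 26.3 and 29.7 CPM without. Here too the groups did not overlap. Means were 61.1 ± 3.10 CPM (SD, n = 3) against 31.1 ± 5.69 CPM (SD, n = 3), and BNIP3L rose by 0.97 on the log2 scale (standard error 0.17, 95% interval 0.58 to 1.37, edgeR adjusted p = 0.00681), a fold of 1.96. In batch 1 the log2 difference was 0.79, and in batch 2 it was 1.09. When replicates 2 and 3 of each group were summed to 1 library, the log2 fold change was 0.94 and the call was lost (edgeR adjusted p = 0.104), while BNIP3 kept its call (edgeR adjusted p = 0.0116). That fit called 5.78% of the genes. Adding batch as a term to the summed libraries, a setting chosen after seeing the data, gave BNIP3L a log2 fold change of 0.96. That fit leaves 1 library per group in each batch, so only its effect size is given.

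**Figure D1:**
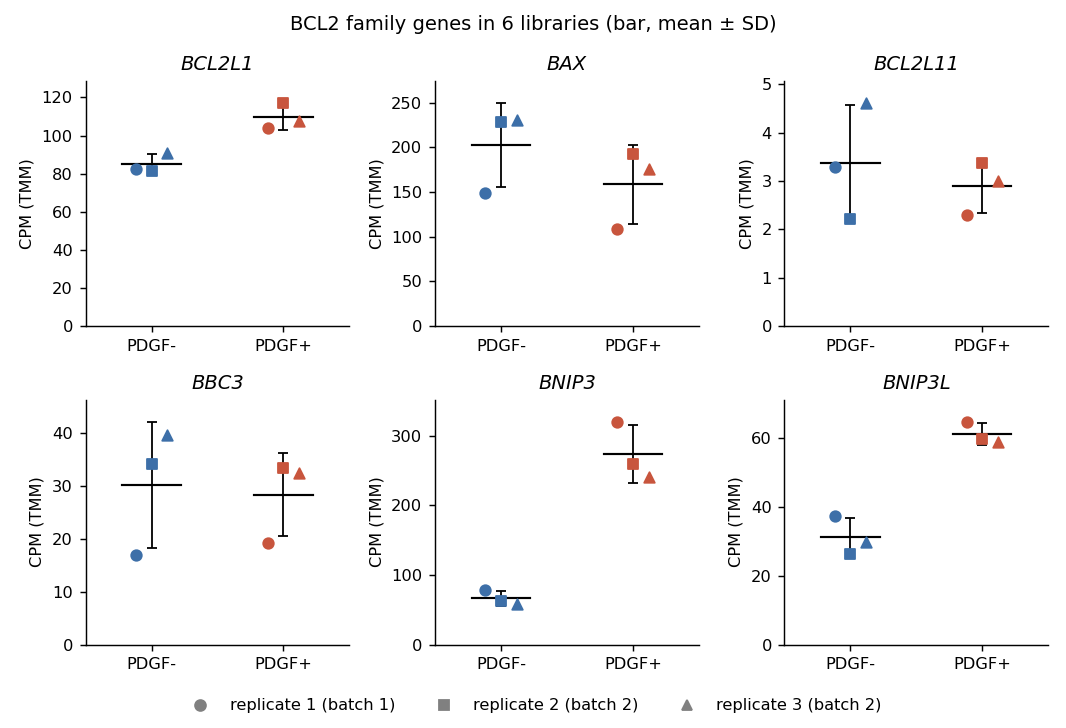
Levels of the 6 members in CPM after TMM scaling (vertical axes, each from 0), by group, with a point for each library, its symbol giving the replicate and batch, and bars for the mean and SD of 3 libraries. BNIP3 (241.1 to 320.2 CPM with PDGF, 58.4 to 78.7 without), BNIP3L and BCL2L1 separate by group, while in BAX and BBC3 the circles of batch 1 lie lowest in both groups.

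Of the 6 members, 3 (BCL2L1, BNIP3 and BNIP3L) had no overlap between groups with PDGF higher, against 18.2% of all genes tested. None had no overlap with PDGF lower, against 19.3%. In the blocked fit the member calls were 3 higher (BCL2L1, BNIP3 and BNIP3L) and 1 lower (BAX), but that fit called 31.1% of all genes higher and 29% lower, 6934 in all against 2108 without the block. In a model with a term for the batch difference of the PDGF effect, that term ran from -0.36 (log2, BBC3) to 0.42 (BCL2L11) among the members. Batch 1 holds 1 library per group, so this term cannot decide whether the PDGF effect differs between batches.

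**Figure D2:**
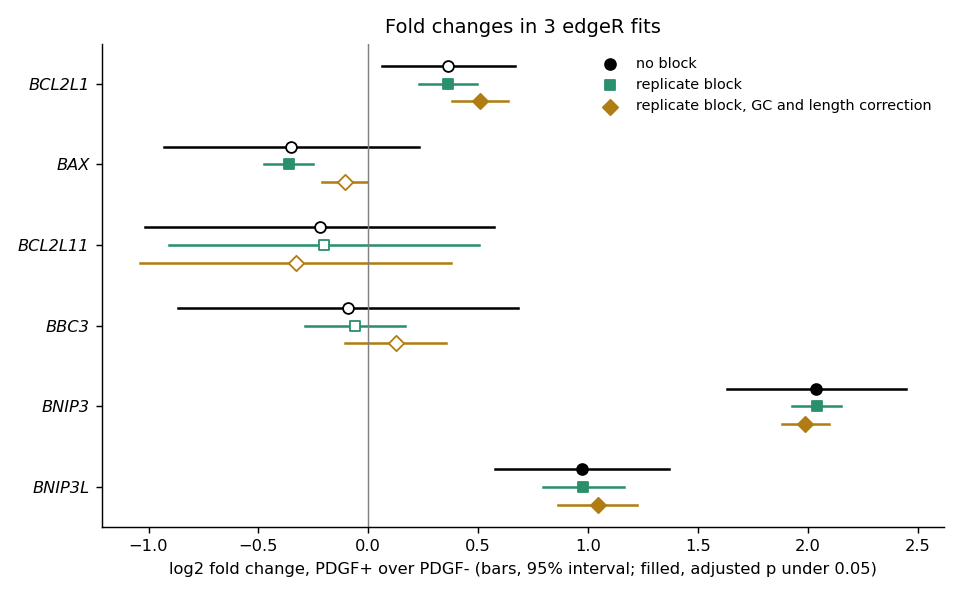
Log2 fold change of SSC PDGF+ over SSC PDGF- (horizontal axis) for each member in 3 edgeR fits, with bars for the 95% interval and filled symbols for an adjusted p under 0.05. BNIP3 (2.04, 2.04 and 1.99) and BNIP3L (0.97, 0.98 and 1.04) are filled in all 3 fits, BCL2L1 in the blocked fits, and BAX in the blocked fit without the correction (-0.36).

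Levels of different genes can be compared only per length, so each library's counts were divided by the length of the longest RefSeq transcript, then scaled to the same total in each library (TPM). Without PDGF, the order of the TPM levels was BAX (269.6 ± 41.9), BNIP3 (78.4 ± 20.01), BNIP3L (56.9 ± 15.6), BCL2L1 (48.1 ± 3.67), BBC3 (15.8 ± 5.20) and BCL2L11 (1.203 ± 0.408; SD, n = 3 for each). BNIP3 and BNIP3L overlapped in this order, as did BNIP3L and BCL2L1, and the other neighbours did not. With PDGF, BNIP3 stood first at a TPM of 362.4 ± 79.2 (SD, n = 3), above BAX at 238.8 ± 53.2 (SD, n = 3), and their libraries did not overlap, at 309.9 to 453.5 against 178 to 277. BNIP3L followed at 125.1 ± 14.8 TPM, then BCL2L1 at 69.8 ± 2.24, BBC3 at 16.8 ± 3.77 and BCL2L11 at 1.16 ± 0.147 (SD, n = 3 for each), with no overlap between neighbours. The transcript model used for BNIP3L is short, at 1048 bases, and its TPM depends on that length.

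Ratios within a library do not depend on the scaling between libraries and were formed for a death gene over the survival gene it opposes. BAX per BCL2L1 count was 1.05, 1.64 and 1.63 with PDGF, against 1.81, 2.80 and 2.54 without. All 3 PDGF libraries were below the lowest library without PDGF, and the mean log2 difference was -0.73. BCL2L11 per BCL2L1 was 0.0221, 0.0288 and 0.0279 with PDGF and 0.0399, 0.0270 and 0.0506 without, where the groups overlapped, with a mean log2 difference of -0.54. These ratios were added after the values were seen and carry no test.

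BBC3 per BCL2L1 was 0.185, 0.284 and 0.300 with PDGF and 0.204, 0.418 and 0.435 without. The PDGF library was the lower one within each replicate number, but the groups overlapped, at a mean log2 difference of -0.41 (exact permutation test, two-sided, p = 0.3, adjusted p = 0.3 over 2 ratios). Batch 1 alone gave -0.14 and batch 2 alone gave -0.55, and the difference lay between -0.76 (without SSC PDGF- replicate 1) and -0.19 (without SSC PDGF+ replicate 1) with a library left out. BNIP3 per BNIP3L was 4.96, 4.35 and 4.10 with PDGF and 2.11, 2.38 and 1.97 without. The groups did not overlap, and the mean log2 difference was 1.05 (exact permutation test, two-sided, p = 0.1, the smallest that 3 libraries against 3 allow, adjusted p = 0.2). In batch 1 this difference was 1.24 and in batch 2 it was 0.96.

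**Figure D3:**
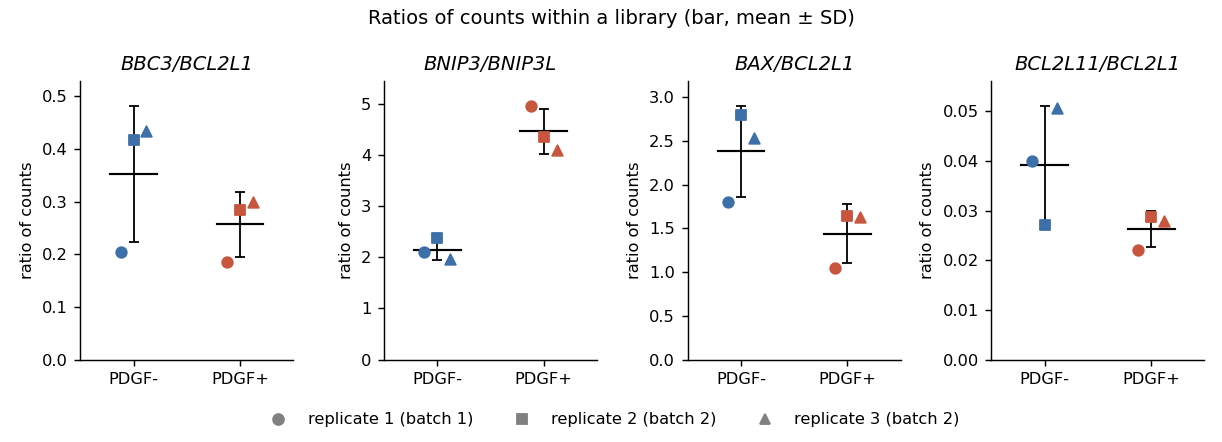
Ratio of the counts of 2 members within a library (vertical axes, each from 0), by group, with a point for each library and bars for the mean and SD of 3 libraries. BNIP3/BNIP3L lies between 4.10 and 4.96 with PDGF and between 1.97 and 2.38 without, and BAX/BCL2L1 is lower in all 3 PDGF libraries (1.05 to 1.64) than in those without (1.81 to 2.80).

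The genes whose pattern over the 6 libraries was most like that of the called members were ranked by the root mean square difference of log2 CPM after centring each gene, among 8608 candidates. Among the 3 nearest to BNIP3 were the adhesion molecule gene CLMP (difference 0.114) and E2F7, an atypical E2F repressor of the cell cycle (0.118). Nearest to BNIP3L were PDK4, a kinase that shuts pyruvate out of the citric acid cycle (0.0347), EOGT, a glycosyltransferase of the endoplasmic reticulum (0.059), and the phosphatase gene PTPN13 (0.063). PDK4 was at 60.3, 55.2 and 54.6 CPM with PDGF and 35.2, 24.7 and 29.5 CPM without, close to BNIP3L in every library.

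Relatives outside the 10 genes held the largest changes of the family. Of 15 such genes, 10 are listed and 8 were tested, of which 1 was called higher and 2 lower (3 and 2 with the replicate block), with a median log2 fold change of -0.10 beside 0.02 over all genes tested. Over all genes, 7.61% were called higher and 10.7% lower, and with the block 31.1% and 29%. BMF encodes a BH3-only protein that is tethered to the cytoskeleton and released when cells lose attachment. It was at 26.2, 22.4 and 31.0 CPM with PDGF and at 126.2, 136.2 and 141.8 CPM without. These groups lay far apart, and BMF fell by 2.35 on the log2 scale (standard error 0.17, edgeR adjusted p = 0.000141), a call kept when any single library was left out.

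BCL2A1, a short-lived survival gene known as a target of NF-kB, had only 1.89, 2.42 and 1.503 CPM with PDGF and 0.329, 0.383 and 0 CPM without. It rose by 2.95 on the log2 scale (standard error 0.66, edgeR adjusted p = 0.0177), but the call was lost without SSC PDGF+ replicate 2 (edgeR adjusted p = 0.0652). BCL2L14, a relative of little-known function, was at 0, 0.0782 and 0.451 CPM with PDGF and 3.37, 2.97 and 2.45 CPM without (log2 fold change -4.01, standard error 0.73, edgeR adjusted p = 0.00761). BCL2L13, another outer membrane protein that binds autophagosomes, had a mean of 101.2 ± 4.43 CPM (SD, n = 3) against 74.2 ± 8.40 CPM (SD, n = 3) without PDGF and did not pass the test (edgeR adjusted p = 0.0623, or 7.25e-06 with the replicate block).

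Downstream of the pore, the apoptosome and caspase genes showed 1 call among the 14 tested (3 higher and 3 lower with the replicate block), with a median log2 fold change of 0.04. The shares over all genes were 7.61% higher and 10.7% lower, and 31.1% and 29% with the block. CASP8, the initiator caspase of death receptors, was at 30.9, 28.6 and 28.4 CPM with PDGF and 17.9, 17.5 and 16.9 CPM without. It rose by 0.75 on the log2 scale (standard error 0.15, edgeR adjusted p = 0.0109), a call lost without SSC PDGF- replicate 3 (edgeR adjusted p = 0.0515). CASP9 (log2 fold change 0.06) and APAF1 (-0.03) were not called, with or without the block. In the blocked fit with GC content and gene length corrected, APAF1 was called lower at -0.25 (edgeR adjusted p = 0.00551) and CASP9 was not called (edgeR adjusted p = 0.0881). Among 5 caspase inhibitors tested (3 higher with the replicate block, median log2 fold change 0.21), XIAP alone was called in the unblocked fit, at 1.22 (log2; edgeR adjusted p = 0.0219) and at levels of 4.36 to 6.41 CPM with PDGF and 1.86 to 2.46 CPM without, and the call was lost in 4 of the 6 fits with a library left out.

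FOXO factors are known regulators of BCL2L11 and BBC3. Of 9 FOXO factors and targets tested, 2 were called, both lower, against 10.7% of all genes. With the replicate block 1 was higher and 5 were lower, against 31.1% and 29% of all genes. The median log2 fold change was -0.42 without the block, beside 0.02 over all genes tested, and 8 of the 9 had a negative value. FOXO1, a factor that PI3K and AKT signalling keeps out of the nucleus and that can activate BCL2L11, was at 69.0, 50.1 and 58.9 CPM with PDGF and 175.8, 139.4 and 138.2 CPM without. FOXO1 fell by 1.35 on the log2 scale (standard error 0.17, edgeR adjusted p = 0.00185). PIK3IP1, an inhibitor of PI3K, was called lower at -1.33 (edgeR adjusted p = 0.0335) and lost its call in 5 of the 6 fits with a library left out. FOXO3, the other main activator of BCL2L11, averaged 105.9 ± 3.49 CPM (SD, n = 3) against 123.8 ± 12.4 CPM (SD, n = 3) and was not called without the block (edgeR adjusted p = 0.277). It was called lower with the replicate block (edgeR adjusted p = 0.0023). With GC content and gene length corrected as well it was at -0.34 (edgeR adjusted p = 2.22e-05).

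**Figure D4:**
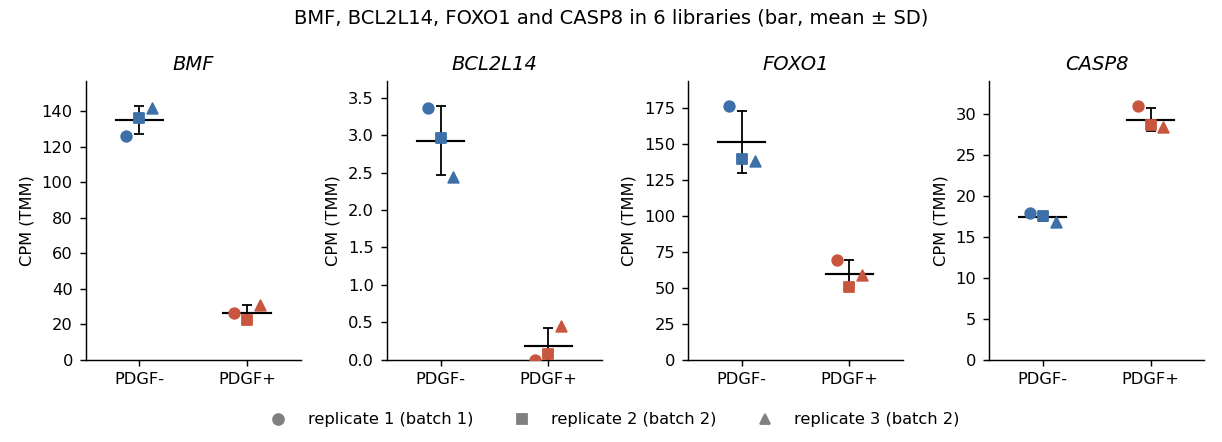
Levels of BMF, BCL2L14, FOXO1 and CASP8 in CPM after TMM scaling (vertical axes, each from 0), by group, with a point for each library and bars for the mean and SD of 3 libraries. BMF (22.4 to 31.0 CPM with PDGF, 126.2 to 141.8 without), BCL2L14 and FOXO1 are lower in all 3 PDGF libraries, and CASP8 is higher (28.4 to 30.9 against 16.9 to 17.9 CPM).

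The rise of BNIP3 and BNIP3L was set beside 18 other genes of mitophagy, of which 13 were tested. Of these, 2 were called, both lower, against 10.7% of all genes. The median log2 fold change was -0.37, beside 0.02 over all genes tested, and 9 of 13 values were negative. The mitophagy adaptor OPTN was called at -0.71 (log2 fold change; edgeR adjusted p = 0.00837), and GABARAP, whose product coats autophagosomes and is bound by NIX, was called at -0.57 (edgeR adjusted p = 0.0128). OPTN lost its call in 2 and GABARAP in 3 of the 6 fits with a library left out. PINK1, the kinase of the PINK1 and Parkin route, had a mean of 105.3 ± 17.8 CPM (SD, n = 3) against 127.8 ± 8.93 CPM (SD, n = 3) without PDGF and was not called without the block (edgeR adjusted p = 0.264). It was called lower with the block (edgeR adjusted p = 0.000457), a call lost with GC content and gene length corrected (edgeR adjusted p = 0.18). With the replicate block, 8 of the 13 genes were called, all lower, against 29% of all genes. Once GC content and gene length were corrected for in that fit, 1 gene was higher (PHB2, log2 fold change 0.23, edgeR adjusted p = 0.000177) and 8 were lower, and the median was -0.22. The corrected fit called 55.7% of all genes in either direction.

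Of 10 tested genes of mitochondrial fission, fusion and the outer membrane channel, 1 was called higher, against 7.61% of all genes. The median log2 fold change was 0.32. The called gene was VDAC1, a channel through which metabolites cross the outer membrane (0.41, edgeR adjusted p = 0.0498), and it was lost in all 6 fits with a library left out. With the replicate block, 6 of the 10 were called, all higher, against 31.1% of all genes. With GC content and gene length corrected as well, 5 were higher and 1 was lower (MFN1, log2 fold change -0.24, edgeR adjusted p = 0.00243), and the median was 0.15. Of all genes, 55.7% were called in that fit in either direction. Of 8 genes that control the turnover of MCL1 and BIM proteins, 1 was called lower, against 10.7% of all genes. The median log2 fold change was -0.03. With the replicate block 2 were higher and 2 lower, against 31.1% and 29% of all genes. FBXW7, which marks MCL1 for degradation, was the gene called in the unblocked fit, at -0.79 (edgeR adjusted p = 0.0311), a call lost in 4 of the 6 fits with a library left out.

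The blocked fit with GC content and gene length corrected called 55.7% of the 11539 genes tested, 3161 higher and 3270 lower. List counts in that fit are to be read beside this share. The other BCL2 family genes had 3 higher and 2 lower calls and a median of 0.02, positive where it was negative before. The apoptosome and caspase genes had 5 higher and 2 lower and a median of 0.16, and the MCL1 and BIM turnover genes had 2 higher and 2 lower and a median of 0.04, again of the opposite sign. The FOXO list had 1 higher and 6 lower with a median of -0.34, and 2 of the caspase inhibitors were called, both higher, with a median of 0.19.

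In the fit with replicates 2 and 3 of each group summed, BMF, BCL2A1, BCL2L14 and FOXO1 kept their calls, at edgeR adjusted p of 0.00677 for BMF to 0.0357 for BCL2A1. CASP8, XIAP, PIK3IP1, OPTN, GABARAP, VDAC1 and FBXW7 lost theirs, at 0.117 for XIAP to 0.373 for VDAC1.

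**Figure D5:**
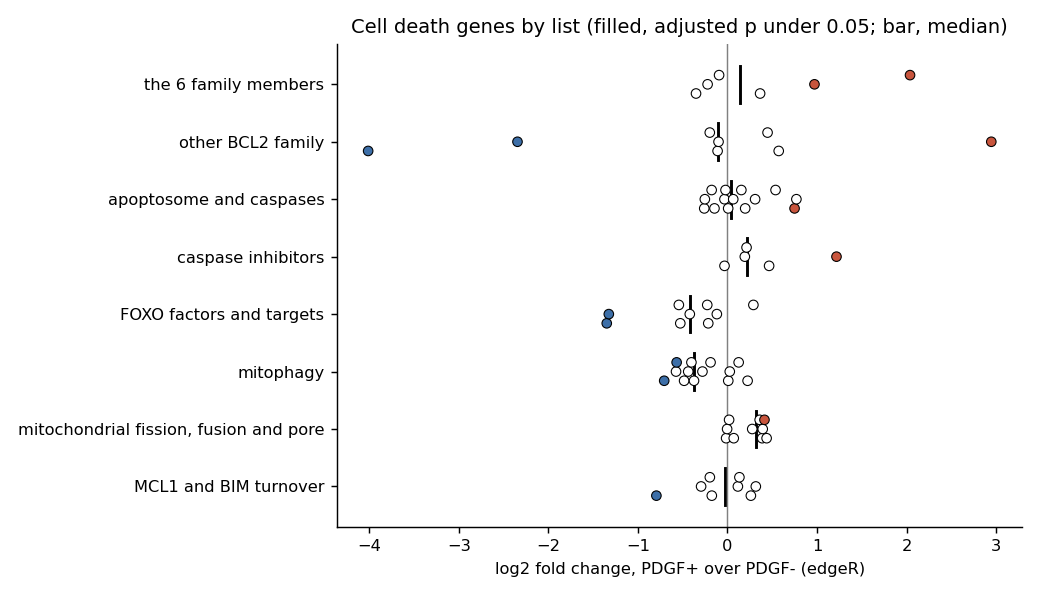
Log2 fold change of SSC PDGF+ over SSC PDGF- in edgeR (horizontal axis) for the 6 members and 7 lists of cell death and mitochondrial genes, with a point for each gene, filled for an adjusted p under 0.05, and a bar at the median. The mitophagy list (median -0.37) lies mostly below 0 while BNIP3 and BNIP3L lie at 2.04 and 0.97.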

How the data were processed

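Gene counts of 6 bulk RNA sequencing libraries (3 SSC PDGF+, 3 SSC PDGF-) were analysed. The authors deposited expected counts per gene with no normalization. They hold 34 fractional values in 13 genes, which were rounded. The submitters' processing notes name fastp, HISAT2 2.1.0, SAMtools and featureCounts 2.0.1, and the builds Mmul_10 and Mmul_8.0.1 with no role. The table holds 1991 gene identifiers of the LOC114 series, which belongs to the annotation of Mmul_10, so positions, lengths and sequences were read from the RefSeq annotation of Mmul_10 by symbol. Strand-specific counting is not given in the sources used here.

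The members and lists were chosen with earlier results of these data known. Counts were scaled by TMM and filtered with filterByExpr in edgeR 4.0.16 (R 4.3.3). The quasi-likelihood test had no block, and p-values were adjusted by Benjamini-Hochberg over 11539 genes, with 0.05 as the threshold. The standard error is the absolute log2 fold change over the square root of F. Genes named beyond the members are the 2 largest calls in each direction of a list, every call among other BCL2 family genes, and the 3 nearest in pattern to each called member with an average log2 CPM of at least 3. BCL2L13, CASP9, APAF1, FOXO3, PINK1, PHB2 and MFN1 were named after their values were seen. Ratios used 0.5 added counts, and 4 of 6 planned ratios need a gene not analysed here. Some genes and 1 list chosen by these rules are not reported here. The edgeR fit with no block was tested on simulated counts without a batch effect, and the other fits and the ratios were not.

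By the labels, equal replicate numbers mark a shared batch, and such libraries' deviations from the group means correlated with r = 0.669, 0.29 and 0.307. Replicates 2 and 3 correlated across numbers to a similar degree (r = 0.32 and 0.3). These correlations therefore do not show that the numbers pair libraries within batch 2. The block used the replicate numbers all the same, and a batch term was run beside it. GC content and length were available for 97.4% of the genes tested. Alternatives were run with DESeq2 1.42.0, limma 3.58.1 (voom), other scalings and filters, the block, a batch term, batch 2 alone, summed replicates and each library left out. Figures were drawn with matplotlib 3.10.9.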

Additional observations from a re-analysis of the deposited data

How the results depend on the processing

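BNIP3 kept its direction and call in every alternative run. BNIP3L did so too except with replicates 2 and 3 summed (log2 fold change 0.94). A batch term in the summed fit gave 0.96, with 1 library per group in each batch, so only this effect size is given. For BCL2L1, the log2 fold change passed the threshold with the replicate block (0.36), the block with GC content and gene length corrected (0.51) and that correction alone (0.51). It also passed with a batch term (0.36) and in an edgeR fit of batch 2 alone (0.36). BAX passed it with the block (-0.36), the batch term (-0.36) and the edgeR fit of batch 2 alone (-0.34). In these 3 settings 1 member was lower, and 1 was higher with replicates summed. The batch 1 and batch 2 values given with each member above are differences of mean log2 levels, not edgeR fits. The block changed no other member call. BBC3 turned positive with the correction, at 0.13 with the block and 0.12 without, and ranged from -0.40 to 0.16 with a library left out. BCL2L11 ranged from -0.44 to 0.069 in those fits. BAX ranged from -0.54 to -0.13. The count of all genes called was 6934 with the block, 6431 with block and correction, 4752 with the correction, 6991 with the batch term, 6126 in batch 2 alone, 693 with replicates summed, 1168 to 1206 without replicate 2 or 3 of either group, and 3010 without SSC PDGF- replicate 1. DESeq2 called 2725. The BNIP3/BNIP3L ratio difference was 1.24 in batch 1 alone, and 0.98 to 1.13 with a library left out, and the BBC3/BCL2L1 difference ran from -0.76 to -0.19 in those fits. Under the replicate block, exact sign flips of 3 pairs gave p = 0.25 for both ratios, the smallest they can give. The causes of these shifts were not tested. BCL2L11 had 23 to 47 counts a library.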
